A study of Mus musculus with 6 samples.

Results

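The SLC25 solute carriers are the transporters that move metabolites across the inner membrane of mitochondria. The members were the protein-coding genes whose symbol is Slc25a followed by a number, without Slc25a1 and Slc25a20. This left 45 of 47 such genes, out of 55450 genes in the count table. The study compared polyA RNA-seq of small intestinal epithelium between 3 control mice (animals 482, 483 and 486) and 3 double-knockout mice (animals 423, 476 and 477), with 1 library per mouse. All 6 mice were homozygous for loxP-flanked alleles of Ncor1, a nuclear receptor corepressor, and of a second corepressor gene. The controls were Vil1-Cre-ERT2- and the knockouts Vil1-Cre-ERT2+, a recombinase driven by the villin 1 promoter of intestinal epithelial cells, so that gene deletion and the presence of the transgene cannot be told apart. Per the labels' protocols, mice received tamoxifen by i.p. injection at 15 mg per 100 g body weight for 5 days at 8 to 9 weeks of age, were followed for 20 days and entered metabolic cages on day 21. A glass slide was used to scrape the epithelium off the lamina propria. Whether a library holds duodenum, jejunum or ileum is not given in the labels.

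Most SLC25 proteins lie in the inner mitochondrial membrane, where they exchange nucleotides, phosphate, carboxylates, amino acids, cofactors and metal ions between cytosol and matrix. The family includes the ADP/ATP and phosphate carriers that feed and drain ATP synthase, the dicarboxylate and aspartate-glutamate carriers that move reducing equivalents, and carriers for coenzyme A, folate, glutathione, NAD and iron. Enterocytes burn glutamine and make citrulline from it, which depends on carriers for glutamate, aspartate and ornithine.

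The 3 members with the largest increases were Slc25a33, Slc25a34 and Slc25a13. For these the 250 bases before the RefSeq start sites (build GRCm38.p6, the mm10 assembly) are printed. Whether the 3 genes share regulation was not tested. All 3 lie on the minus strand. The sequences run 5′ to 3′ along the gene, from chr4:149774268-149774517 for Slc25a33, chr4:141623835-141624084 for Slc25a34 and chr6:6217174-6217423 for Slc25a13. Capitals mark matches to the short motifs named in the text.
Slc25a33: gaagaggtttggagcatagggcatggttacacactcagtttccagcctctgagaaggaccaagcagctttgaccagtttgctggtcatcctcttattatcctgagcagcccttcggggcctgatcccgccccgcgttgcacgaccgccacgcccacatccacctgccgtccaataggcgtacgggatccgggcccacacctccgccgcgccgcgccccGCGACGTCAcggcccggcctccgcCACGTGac
Slc25a34: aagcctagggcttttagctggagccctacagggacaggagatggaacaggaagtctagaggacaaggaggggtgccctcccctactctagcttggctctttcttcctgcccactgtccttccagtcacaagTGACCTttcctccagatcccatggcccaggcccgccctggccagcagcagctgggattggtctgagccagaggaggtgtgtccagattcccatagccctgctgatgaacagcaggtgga
Slc25a13: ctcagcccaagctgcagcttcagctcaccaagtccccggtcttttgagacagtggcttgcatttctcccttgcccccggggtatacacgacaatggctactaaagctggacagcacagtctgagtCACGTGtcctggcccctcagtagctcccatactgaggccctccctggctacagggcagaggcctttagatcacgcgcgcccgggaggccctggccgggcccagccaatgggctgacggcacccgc
In Slc25a33 the capitals are an antioxidant response element core (TGACNNNGC, here on the opposite strand) and an E-box (CACGTG), in Slc25a34 a nuclear receptor half-site (AGGTCA, on the opposite strand) and in Slc25a13 an E-box.

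Each motif was searched on both strands of the same 250-base window in 32851 RefSeq promoters, and 34 members had an entry, Slc25a46 and Slc25a2 being left out by chromosome. The half-site AGGTCA was found in 14.0% of all promoters and in 4 of the 34 members. Of these, 3 were called higher in knockout epithelium (Slc25a34, Slc25a39 and Slc25a45, of 8 such members with an entry). The share with a half-site among all genes called higher was not computed, so a link of half-site and increase was not tested. For Slc25a39 the window (102407518 to 102407767) lies inside its GENCODE gene (102402985 to 102407946). The antioxidant core was found in 10.2% of promoters and in 6 members, of which Slc25a33 was called higher. The E-box was found in 6.02% of promoters and in 5 members, of which Slc25a13 and Slc25a33 were called higher. A core of the NRF1 site (TGCGCATGC) was found in 1.28% of promoters and in 1 member, Slc25a31, whose counts were too low to be tested. The estrogen-related receptor site TCAAGGTCA, which contains AGGTCA, was found in 0.387% of promoters, the amino acid response core TGATGNAA in 3.45%, and both in 0 of the 34 members. None of these motifs was found in the 2 members called lower that had an entry (Slc25a4 and Slc25a42). At these motif rates, 2 promoters are too few for a contrast with the members called higher. Slc25a35 and Slc25a37 had no entry.

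The libraries held 23476031 to 46835165 counts, and levels are given as CPM (counts per 1000000 counts of the library) scaled with TMM, edgeR's trimmed mean of M-values. Transcripts of Ncor1 ranged over 99.3 to 140 CPM in controls and over 22.5 to 36.4 CPM in knockouts. Defining markers of enterocytes were abundant in all libraries, with a summed level of 56500 to 79600 CPM in controls and 102800 to 193500 CPM in knockouts. Of 12 such markers 3 rose, 2 fell and 7 were not called, or 3 rose and 6 fell with total library size scaling. Those that rose were Fabp1, Fabp2 and Apoa4 (control means 3597, 12930 and 16310 CPM, knockout means 15830, 59600 and 39320 CPM). Vil1 fell from a mean of 2685 to 1170 CPM and Anpep from 7614 to 1116 CPM. The sum is therefore led by a few markers and does not measure enterocyte content. All 8 tuft cell markers fell (summed level 100.5 to 303.2 CPM in controls, 1.73 to 10.9 CPM in knockouts), and 5 of 10 goblet and Paneth cell markers fell while 2 rose (9923 to 13110 and 8375 to 8891 CPM), with 1 that rose without control 483 or knockout 477 and 0 with the trend with exon length and GC content removed. Of 11 tested leukocyte markers 2 fell (106 to 385 and 57.4 to 165 CPM), or 1 without control 483 or knockout 477 and 3 without knockout 423. Of 5 tested erythrocyte markers all rose (7.97 to 22.2 and 35.6 to 543 CPM), but 0 did without control 482 or 483 and 1 without control 486. Their part in the results on the carriers was not tested, and in this bulk tissue fewer cells of a type and less RNA per cell cannot be told apart.

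Of the 45 carriers, 35 were counted deeply enough to be tested, and 13 of these (37.1%) passed edgeR's quasi-likelihood test at a Benjamini-Hochberg adjusted p of 0.05 over all 15028 genes tested. Across all tested genes 35.6% passed, so the share of carriers that passed was close to the background. The carriers split unevenly: 9 rose (25.7%, against 17.3% of all genes) and 4 fell (11.4%, against 18.3%), a difference in shares that was not tested. Those that rose were Slc25a10, Slc25a11, Slc25a13, Slc25a28, Slc25a33, Slc25a34, Slc25a39, Slc25a45 and Slc25a46, and those that fell were Slc25a4, Slc25a35, Slc25a37 and Slc25a42. The median log2 fold change, knockout over control, was 0.08 for the tested carriers and -0.06 for all tested genes. These shares and this median of all genes are the background for every gene list below. The lists were chosen with earlier results of these data known, and no set test was run. The change was more than 2-fold for 8 of the 13, and for 8 of the 13 the call held whichever library was left out. Without control 482, 2 carriers fell in place of 4.

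The direction of this split depends on how the libraries are scaled. TMM factors were 1.28, 1.13 and 1.09 in controls 482, 483 and 486 and 0.975, 0.871 and 0.741 in knockouts 423, 476 and 477. With the total library size in its place, the median of all genes moved by -0.44 and the split became 4 carriers higher and 10 lower, against 7.54% and 30.3% of all genes. Under that scaling the median of the tested carriers was -0.34 beside -0.49 for all genes. The 4 still called higher were Slc25a33, Slc25a34, Slc25a13 and Slc25a10, and Slc25a46 was the riser nearest to no change (log2 fold change 0.09). All 13 called carriers kept their sign. When each library's trend with exon length and GC content was removed, 10 carriers were higher and 3 lower, against 15.8% and 15.2% of all genes. Slc25a32 joined the higher ones and Slc25a42 left the lower ones.

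In 21 of the 35 tested carriers the 3 knockout libraries did not overlap the 3 control libraries, and the same held for 50.3% of all tested genes. They lay above the controls in 12 and below them in 9, and all 13 called carriers were among the 21. The 22 carriers that were not called had log2 fold changes between -0.79 and 0.70.

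**Figure D1:**
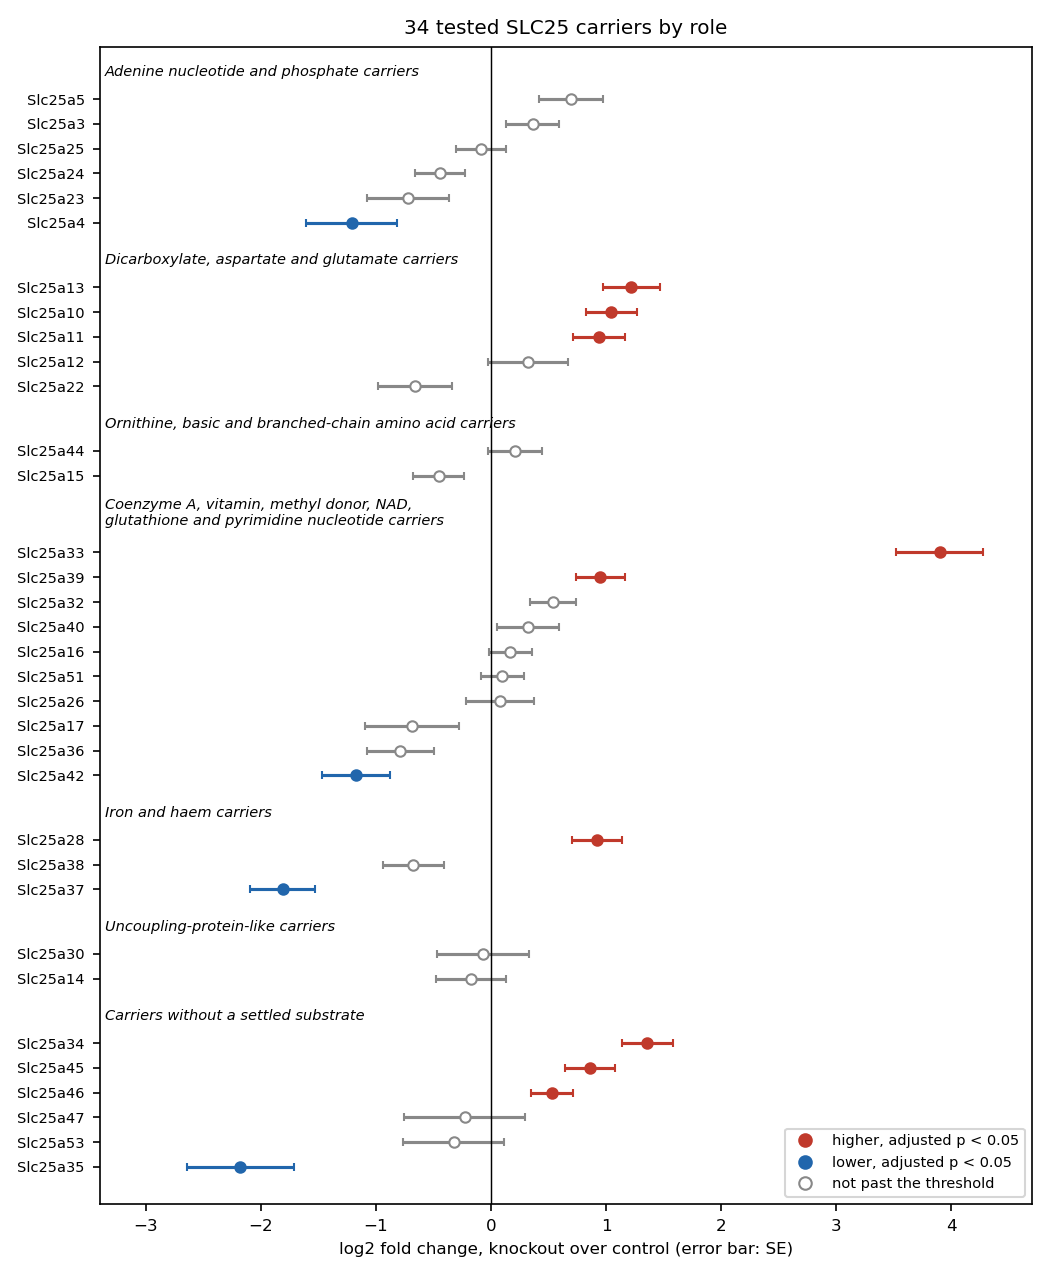
Log2 fold change, knockout over control, of 34 of the 35 tested SLC25 carriers grouped by what they carry (x axis: log2 fold change; bars: SE from edgeR's quasi-likelihood fit; n = 3 libraries per genotype; filled points pass an adjusted p of 0.05). Slc25a33 stands alone at 3.90, and iron carriers Slc25a28 and Slc25a37 lie on opposite sides of 0.

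The adenine nucleotide and phosphate carriers supply ATP synthase with ADP and phosphate and export ATP. Of 9 members 6 were tested, 0 rose, 1 fell and 5 were not called, and their median log2 fold change was -0.27. Scaled by total library size, 2 fell. Slc25a4 (ENSMUSG00000031633, ANT1, the ADP/ATP carrier of heart and muscle; chromosome 8, 46206797 to 46211284, mm10) had 10.5, 8.14 and 15.5 CPM in controls 482, 483 and 486 and 7.27, 2.53 and 5.0 CPM in knockouts 423, 476 and 477. The highest knockout lay just under the lowest control. Its change was -1.21 on the log2 scale (SE 0.39, adjusted p 0.038). The call was lost without control 482 (adjusted p = 0.060), control 486 (0.10), knockout 476 (0.085) or knockout 477 (0.083). All library values that follow are in the same order of animals.

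Slc25a5 (ANT2, the ADP/ATP carrier of most proliferating and epithelial tissues) was the most abundant carrier per kilobase of exon. Its libraries read 1538, 1888 and 2557 CPM in controls and 2806, 3183 and 3704 CPM in knockouts. The genotypes did not overlap, but the difference did not pass the test (log2 fold change 0.70, SE 0.28, adjusted p 0.074). It passed without control 486 (adjusted p = 0.032) and with DESeq2 (adjusted p = 0.033). The log2 fold change of Slc25a5 was 0.26 with total library size scaling (adjusted p = 0.31) and 0.35 with the length and GC trend removed (adjusted p = 0.27). Slc25a3, the phosphate carrier and the next most abundant, read 739, 816 and 921 CPM in controls and 960, 998 and 1231 CPM in knockouts. Its log2 fold change was 0.37 with an adjusted p of 0.24, and -0.08 with total library size scaling. Slc25a24, a calcium-regulated ATP-Mg/phosphate carrier, had 196 ± 13.4 CPM in controls and 144 ± 28.8 CPM in knockouts (SD, n = 3), without overlap (log2 change -0.45, adjusted p 0.13), and was called lower with total library size scaling (-0.87, 0.017). The related Slc25a23 and Slc25a25 were also not called.

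Within each library Slc25a5 made up nearly all of the ADP/ATP carrier transcripts, 99.5% to 99.7% per kilobase in controls and 99.8% to 99.9% in knockouts. It alone was 58.8% to 67.6% of the summed level of the family per kilobase in controls and 65.8% to 67.4% in knockouts, so this share overlapped between the genotypes. Slc25a3 was 7.23% to 8.38% of that sum in controls and 6.18% to 6.68% in knockouts. In CPM not divided by exon length, the share of Slc25a5 was 35.4% to 45.6% in controls and 45.9% to 48.0% in knockouts, without overlap. The summed TMM-scaled level of the family was 4338, 4901 and 5604 CPM in controls and 6112, 6855 and 7720 CPM in knockouts, but without the TMM factors the sums overlapped (5562, 5539 and 6127 against 5955, 5966 and 5717 CPM).

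**Figure D2:**
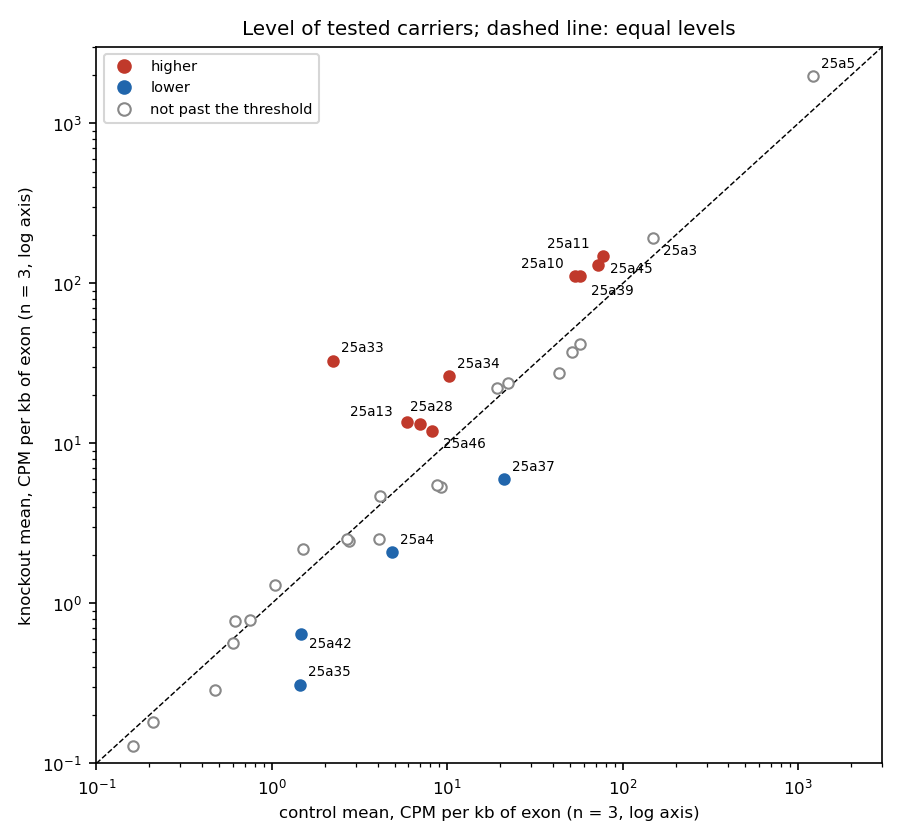
Mean level of 34 of the 35 tested carriers in control (x axis) and knockout epithelium (y axis), in TMM-scaled CPM per kilobase of exon on log axes (n = 3 libraries each; names leave out the prefix Slc). Slc25a5 tops both axes at 1212 and 1963, and Slc25a33 lies farthest from the line of equal levels, at 2.22 and 32.9.

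The carriers of dicarboxylates, aspartate and glutamate link the cytosolic and matrix pools of malate, oxoglutarate, aspartate and glutamate. Here 5 of 7 members were tested, 3 rose, 0 fell and 2 were not called, and the median log2 fold change of 0.94 was the highest among the role groups. With total library size scaling 2 rose and 1 fell, and with no filter on low counts 3 rose and 1 fell. Without control 483 the count that rose was 2. Slc25a13 (ENSMUSG00000015112, citrin, the aspartate-glutamate carrier of liver and other epithelia; chromosome 6, 6041218 to 6217173) had 15.6, 28.5 and 22.7 CPM in controls and 44.0, 56.0 and 55.0 CPM in knockouts. Every knockout lay above every control. On the log2 scale it rose by 1.22 (SE 0.25, adjusted p 0.0057). Slc25a12 (aralar, the aspartate-glutamate carrier of muscle and brain) overlapped between genotypes, at 7.63 ± 2.05 and 9.51 ± 4.03 CPM (SD, n = 3).

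Slc25a10 (ENSMUSG00000025792; chromosome 11, 120491840 to 120499187) exchanges malate or succinate for phosphate. Its level was 164, 188 and 206 CPM in controls and 315, 412 and 424 CPM in knockouts, without overlap. The increase was 1.05 on the log2 scale (SE 0.22, adjusted p 0.0070), or 1.44 once the length and GC trend was removed. Slc25a11 (ENSMUSG00000014606; chromosome 11, 70644196 to 70647479) exchanges oxoglutarate for malate. It had 136, 156 and 200 CPM in controls and 298, 292 and 351 CPM in knockouts, so the lowest knockout was well above the highest control. Its log2 fold change was 0.94 (SE 0.23, adjusted p 0.012). The call was lost without control 483 (adjusted p = 0.052) and with total library size scaling (adjusted p = 0.058). Of its exon bases 189 overlap Rnf167 on the other strand, whose log2 fold change was -0.17 (adjusted p = 0.54). Slc25a22, a glutamate carrier, was not called: its libraries overlapped at 334, 216 and 228 CPM in controls and 97.7, 229 and 166 CPM in knockouts. It passed as lower without the filter on low counts (adjusted p 0.045) and with total library size scaling (0.022). With the length and GC trend removed, the log2 fold change of Slc25a22 was -0.14 (adjusted p 0.73).

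The enzymes that work beside these carriers did not move in one direction. Of 6 tested enzymes of the malate-aspartate shuttle and glutamate use, 1 rose and 2 fell, with a median log2 fold change of 0.05. Got2, the mitochondrial aspartate aminotransferase, rose by 2.21 on the log2 scale (17.2 ± 1.56 and 79.7 ± 21.0 CPM, SD, n = 3; adjusted p 0.00026). Glud1, glutamate dehydrogenase, fell from 792 ± 138 to 109 ± 23.6 CPM (-2.87, adjusted p 0.00013).

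Among carriers of ornithine, basic and branched-chain amino acids 2 of 4 members were tested and 0 were called. Slc25a15, the ornithine carrier of the urea cycle, had 233, 348 and 286 CPM in controls and 215, 193 and 224 CPM in knockouts. The knockouts lay below the controls without passing the test (log2 fold change -0.45, SE 0.22, adjusted p 0.14). With total library size scaling it was called lower, at -0.89, and with the length and GC trend removed the value was -0.23 (adjusted p 0.46). Slc25a44, the branched-chain amino acid carrier, overlapped at 68.6 ± 9.80 and 79.4 ± 19.5 CPM (SD, n = 3), and its log2 fold change of 0.21 turned to -0.26 with total library size scaling.

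Of 7 enzymes of ornithine and citrulline metabolism 2 rose and 1 fell. Aldh18a1, which makes the precursor of ornithine from glutamate, rose (log2 fold change 1.22, adjusted p 0.0030), as did Oat, ornithine aminotransferase (1.14, 0.030). Otc, which makes citrulline from ornithine, fell from 178 ± 45.0 to 74.3 ± 14.2 CPM (-1.26, 0.0054). Without control 482, control 483, knockout 423 or knockout 477 the count that rose was 1. Of 7 enzymes of branched-chain amino acid breakdown 0 rose and 2 fell, Ppm1k (-1.97, adjusted p 0.0036) and Bcat2 (-1.23, 0.0056).

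The carriers of coenzyme A, vitamins, methyl donors, NAD, glutathione and pyrimidine nucleotides were all tested. Of 11 members 2 rose, 1 fell and 8 were not called, with a median log2 fold change of 0.10. None fell without control 482 or knockout 477 or with the length and GC trend removed, and 3 fell without control 486 and with DESeq2. With no filter on low counts 2 fell, and with total library size scaling 1 rose and 3 fell.

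Slc25a33 (ENSMUSG00000028982; chromosome 4, 149744036 to 149774277) carries pyrimidine nucleotides into mitochondria and had the largest change of all tested carriers. Its level was 2.64, 5.44 and 4.47 CPM in controls and 41.4, 52.7 and 92.3 CPM in knockouts. The lowest knockout was far above the highest control, and knockout 477 was the highest of all. The increase was 14.9-fold (log2 fold change 3.90, SE 0.38, adjusted p 0.00015). It kept its call with every library left out (adjusted p 0.00017 to 0.0010), and its log2 fold change was 3.72 once the length and GC trend was removed and 3.42 with total library size scaling. By mean level per kilobase it moved from rank 24 of the family in controls to rank 9 in knockouts. Slc25a36, which also carries pyrimidine nucleotides, had 71.7, 129 and 63.1 CPM in controls and 60.9, 47.9 and 44.1 CPM in knockouts. It did not pass the test (log2 fold change -0.79, SE 0.29, adjusted p 0.057), and passed it without control 486 (0.021), with DESeq2 (0.042), without the filter on low counts (0.0081) and with total library size scaling (-1.20, 0.018). With the length and GC trend removed its log2 fold change was -0.47 (adjusted p 0.20).

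Of 11 genes of mitochondrial nucleotide supply and DNA maintenance 1 rose and 3 fell. Ssbp1, which binds single-stranded mitochondrial DNA, rose (log2 fold change 0.95, adjusted p 0.023), and lost its call without control 482, control 483 or knockout 423. Tymp, thymidine phosphorylase, fell (-1.50, adjusted p 0.0024), as did Polg, the mitochondrial DNA polymerase (-1.0, 0.0097), and Cmpk2, a mitochondrial pyrimidine nucleotide kinase (-1.39, 0.013). Without knockout 476 the count that rose was 2.

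Slc25a39 (ENSMUSG00000018677; chromosome 11, 102402985 to 102407946) is needed for glutathione import into mitochondria. Its libraries read 143, 149 and 182 CPM in controls and 304, 270 and 342 CPM in knockouts, without overlap. The rise came to 0.95 on the log2 scale (SE 0.21, adjusted p 0.0091), and with total library size scaling it was 0.51 and no longer called (adjusted p 0.054). Its relative Slc25a40 was at 5.18 ± 1.01 CPM in controls and 6.51 ± 1.02 CPM in knockouts (SD, n = 3) and was not called (log2 fold change 0.32, adjusted p 0.37, and -0.14 with total library size scaling). Of 10 genes of glutathione synthesis and mitochondrial use 8 rose and 0 fell, with a median log2 fold change of 1.08. Over all tested genes 17.3% rose and 18.3% fell. Gclc, the catalytic subunit of the enzyme that limits glutathione synthesis, rose from 65.6 ± 12.5 to 571 ± 193 CPM (3.12, adjusted p 0.00018), and Gsr, glutathione reductase, and Glrx5, a mitochondrial glutaredoxin, rose by 1.35 and 1.18 on the log2 scale (0.0045 and 0.0072). The count was 4 without control 482, control 483 or knockout 477, and 4 with total library size scaling.

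Slc25a42 (ENSMUSG00000002346; chromosome 8, 70184340 to 70212305) imports coenzyme A. It had 11.7, 7.60 and 6.87 CPM in controls and 4.23, 4.32 and 3.05 CPM in knockouts, with every knockout under every control. The log2 change was -1.17 (SE 0.30, adjusted p 0.015). Its call was lost without control 482 (0.063) or knockout 477 (0.053), and the value was -0.69 with an adjusted p of 0.052 once the length and GC trend was removed. The related Slc25a16 overlapped between genotypes, at 19.9 ± 1.96 and 22.4 ± 1.72 CPM (SD, n = 3). Of 10 enzymes of coenzyme A synthesis and turnover 4 rose and 1 fell, with a median log2 fold change of 0.68. Nudt7, a peroxisomal coenzyme A hydrolase, rose by 1.86 (adjusted p 0.0010), Pank3, a pantothenate kinase, by 1.34 (0.0024) and Ppcs, which acts next in the pathway, by 1.25 (0.0034). Pank4 fell (-0.86, adjusted p 0.030), and 0 fell without control 482, control 483, knockout 476 or knockout 477.

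The remaining cofactor carriers did not pass the test. Slc25a51, the NAD carrier, was level at 115, 136 and 117 CPM in controls and 128, 127 and 139 CPM in knockouts, with overlapping genotypes (log2 fold change 0.10, adjusted p 0.70, and -0.34 with total library size scaling). Slc25a32, the folate and flavin carrier, had 9.72, 8.98 and 8.69 CPM in controls and 14.6, 12.3 and 12.9 CPM in knockouts. Its knockouts lay above its controls, by 0.54 on the log2 scale (SE 0.20, adjusted p 0.064), and it was called once the length and GC trend was removed (0.66, adjusted p 0.020). With total library size scaling its value was 0.10 (adjusted p 0.78). Slc25a17, a peroxisomal cofactor carrier, and Slc25a26, the S-adenosylmethionine carrier, overlapped between genotypes.

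Genes that handle the same vitamins moved in both directions. Of 12 genes for thiamine, flavin and folate 6 rose and 3 fell (median log2 fold change 0.69), against 17.3% and 18.3% of all tested genes. With total library size scaling 3 of the 12 rose. Mthfd2, a mitochondrial folate enzyme, rose (2.29, adjusted p 0.00014), while Slc52a3, a riboflavin importer, and Rfk, riboflavin kinase, fell (-1.95, 0.00034, and -2.11, 0.00055). The count that rose was 4 without knockout 423, 476 or 477, and the count that fell was 2 without control 483 or knockout 477. Of 8 tested NAD synthesis genes 2 rose and 2 fell. Nmnat1, the nuclear NAD synthase, rose by 1.61 on the log2 scale (adjusted p 0.00075) and Nadk2, the mitochondrial NAD kinase, by 1.09 (0.0046). Nadsyn1, which makes NAD from its acid precursor, fell (-0.84, adjusted p 0.013). Without knockout 476 the count that fell was 1.

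The iron and haem carriers moved apart from each other. Of 3 members 1 rose, 1 fell and 1 was not called, and with total library size scaling 0 rose and 2 fell. Slc25a28 (ENSMUSG00000040414, mitoferrin-2, the iron importer of most cells; chromosome 19, 43663801 to 43674881) had 33.4, 22.9 and 22.5 CPM in controls and 47.3, 56.6 and 45.1 CPM in knockouts, without overlap. Its log2 fold change was 0.92 (SE 0.22, adjusted p 0.011), and it was not called with total library size scaling (0.46, adjusted p 0.20). Slc25a37 (ENSMUSG00000034248, mitoferrin-1, known for iron import in maturing red cells; chromosome 14, 69241848 to 69285112) had 163, 128 and 88.1 CPM in controls and 34.7, 45.7 and 27.7 CPM in knockouts. All 3 knockouts lay far below the controls. It was 3.50-fold lower (log2 fold change -1.81, SE 0.28, adjusted p 0.0017). Knockout 477, with the lowest Slc25a37, had the highest sum of erythrocyte markers of all 6 libraries, and the part of red cell RNA in the level of Slc25a37 was not tested. Slc25a38, which is needed for the first step of haem synthesis, was at 24.0 ± 5.29 CPM in controls and 15.1 ± 4.23 CPM in knockouts (SD, n = 3), with overlap and an adjusted p of 0.072. It passed as lower without the filter on low counts (0.032) and with total library size scaling (0.0062).

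Beside these carriers, 7 of 13 genes of haem and iron-sulfur cluster synthesis rose and 0 fell, with a median log2 fold change of 0.96. The shares of all tested genes were 17.3% and 18.3%. Alas1, the enzyme that limits haem synthesis outside red cells, rose from 118 ± 12.3 to 593 ± 221 CPM (2.33, adjusted p 0.00068), and Alad, the next enzyme, rose by 1.31 on the log2 scale (0.0037). Hscb, a chaperone of iron-sulfur cluster assembly, rose by 1.56 (0.0090). The 7 include Alas2, which is itself an erythrocyte marker and stood at 0.0675 to 0.391 CPM in controls and 0.499 to 11.6 CPM in knockouts. The count was 4 without control 482 or 483, and 4 with total library size scaling.

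**Figure D3:**
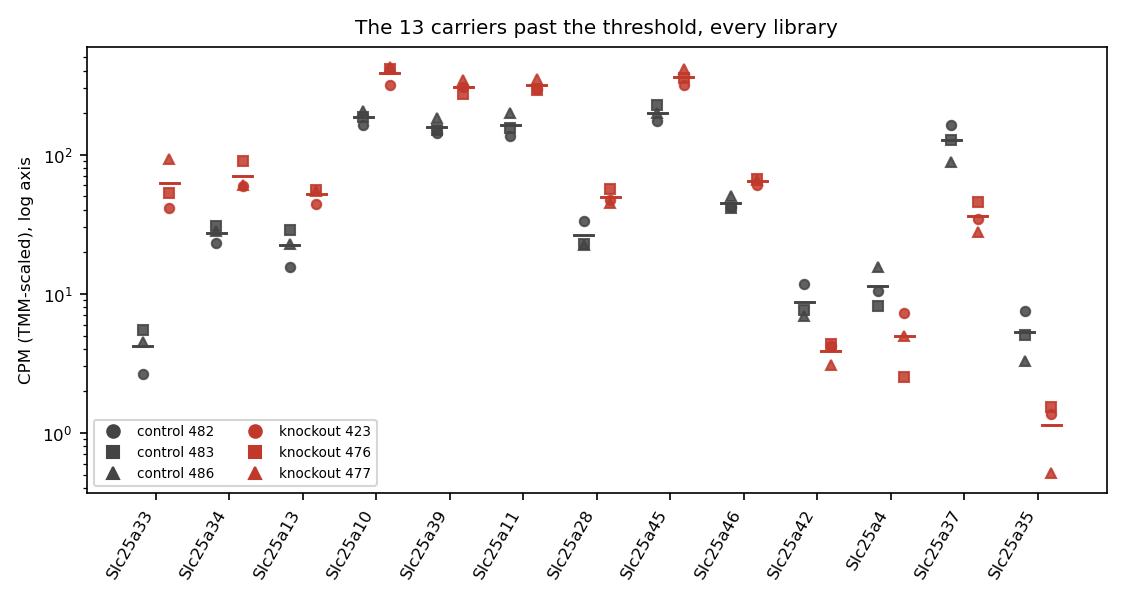
Level of the 13 called carriers in each of the 6 libraries (y axis: TMM-scaled CPM, log axis; grey: controls 482, 483 and 486; red: knockouts 423, 476 and 477; lines: group means, n = 3). In all 13 the knockouts lie entirely above or entirely below the controls, with the widest gap for Slc25a33 (up to 5.44 in controls, from 41.4 in knockouts).

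The uncoupling-protein-like carriers had low levels. Of 3 members 2 were tested and 0 were called. Slc25a14 had 6.51 ± 1.48 CPM in controls and 5.80 ± 1.82 CPM in knockouts, and Slc25a30 had 2.76 ± 0.870 and 2.60 ± 1.01 CPM (SD, n = 3). Both overlapped between genotypes.

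Of the 8 carriers grouped as without a settled substrate 6 were tested, 3 rose, 1 fell and 2 were not called. Without control 482 or knockout 477 the count that rose was 1, as with total library size scaling, and the count that fell was 2 without knockout 423 or knockout 477, with DESeq2 and without the filter on low counts. In these counts 1 of the 2 was from outside the 6 tested, and with DESeq2 and without the filter it was Slc25a48. Slc25a34 (ENSMUSG00000040740; chromosome 4, 141618824 to 141623821) had 23.3, 30.4 and 28.1 CPM in controls and 59.7, 89.3 and 60.6 CPM in knockouts. The knockouts stood well clear of the controls, with knockout 476 highest. Slc25a34 rose by 1.36 on the log2 scale (SE 0.22, adjusted p 0.0023). Slc25a35 (ENSMUSG00000018740; chromosome 11, 68968131 to 68974365), its relative in the pairs compared, had 7.53, 5.07 and 3.26 CPM in controls and 1.38, 1.53 and 0.518 CPM in knockouts. All knockouts lay below all controls. Its log2 fold change was -2.18 (SE 0.46, adjusted p 0.0072). Of its exon bases 1151 overlap Rangrf on the other strand, and reads of these genes cannot be told apart there because the strand setting of the counting is not given. Rangrf had a mean of 1.16 CPM over the 6 libraries and a log2 fold change of 0.26 (adjusted p 0.74).

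Slc25a45 (ENSMUSG00000024818; chromosome 19, 5877808 to 5885878) was among the 5 most abundant carriers per kilobase. It had 175, 225 and 198 CPM in controls and 317, 357 and 413 CPM in knockouts, without overlap. Its rise was 0.86 on the log2 scale (SE 0.22, adjusted p 0.014). The call was lost without control 482 (adjusted p = 0.057) or knockout 477 (0.063) and with total library size scaling (0.084). Slc25a46 (ENSMUSG00000024259; chromosome 18, 31556111 to 31609911) is a relative that lies in the outer membrane and takes part in mitochondrial dynamics. It had 41.8, 41.1 and 50.7 CPM in controls and 60.5, 67.2 and 65.7 CPM in knockouts. The genotypes did not overlap, and the rise was 0.53 on the log2 scale (SE 0.18, adjusted p 0.046). This was the least stable of the 13 calls: it was lost without control 482 (0.15), control 483 (0.18), knockout 423 (0.061), knockout 476 (0.10) or knockout 477 (0.12), with DESeq2 (0.055), without the filter on low counts (0.15) and with total library size scaling (0.71). Slc25a47 (0.625 ± 0.281 and 0.540 ± 0.220 CPM) and Slc25a53 (1.29 ± 0.433 and 1.02 ± 0.348 CPM in controls and knockouts, SD, n = 3) were not called.

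The other 10 members did not pass the filter on low counts and were not tested, and their highest group mean was 0.353 CPM. Slc25a18 and Slc25a41 had no count in any library. A floor of 3 counts was 0.0586 to 0.173 CPM per library. Slc25a48 had 36 counts over the 3 controls (0.281 CPM) and 0 over the 3 knockouts. Against 3 counts over the group, a floor of 0.0399 CPM, it was at least 7.03-fold lower in knockouts. Slc25a48 passed as lower with DESeq2 (adjusted p 0.0073) and in the edgeR test without the filter on low counts (adjusted p 0.00074). Slc25a21 and Slc25a54 had 2 counts each, all in controls, which is under the floor. The other 5 had counts in both genotypes. Summed over controls and knockouts, the counts were 40 and 16 for Slc25a43, while Slc25a29 had 35 and 7, Slc25a27 had 22 and 5, Slc25a2 had 5 and 12, and Slc25a31 had 2 and 3.

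Pairs of related carriers were compared by the ratio of their levels per kilobase within each library, which does not depend on the scaling of the libraries. Of 14 pairs 12 could be compared, since Slc25a18 and Slc25a2 were near 0. An exact two-sided permutation test over the 6 libraries can reach no p below 0.10 with 3 against 3, which is 0.15 after Benjamini-Hochberg adjustment over the 12 pairs. In 8 of the 12 the ratios did not overlap between genotypes, and each of these had an exact permutation p of 0.10. The same share over other pairs of genes was not computed. Among single tested genes 50.3% did not overlap, so the 8 are not shown to be particular to related carriers.

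The pyrimidine nucleotide carriers Slc25a33 and Slc25a36 changed places per kilobase of exon. Slc25a33 was 0.187, 0.214 and 0.361 of Slc25a36 in controls and 3.45, 5.59 and 10.6 times it in knockouts. On the log2 scale the mean ratio went from -2.04 to 2.56, a difference of 4.6. The mitoferrins also changed places: Slc25a28 was 0.329, 0.289 and 0.409 of Slc25a37 in controls and 2.19, 1.99 and 2.62 times it in knockouts. Their mean log2 ratio went from -1.56 to 1.17, a difference of 2.73. In both pairs the more abundant gene per kilobase in every control library was the less abundant one in every knockout library. For Slc25a33 and Slc25a36 this depends on the exon lengths, 1887 and 9594 bases. In CPM not divided by length, knockout 423 still had less Slc25a33 than Slc25a36 (41.4 and 60.9). The order of the mitoferrins was also reversed in CPM.

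Slc25a34 was the more abundant of its pair throughout, at 4.26, 8.27 and 11.9 times Slc25a35 in controls and 59.8, 80.4 and 161 times in knockouts, a difference of 3.62 in mean log2 ratio. Slc25a4 fell against Slc25a5 by 2.0 in log2 ratio, from a mean log2 ratio of -7.99 to -9.99. Slc25a16 gained on Slc25a42 by 1.33, and Slc25a39 on Slc25a40 by 0.62. The calcium-regulated carriers differed less, by -0.65 for Slc25a23 over Slc25a25 and -0.37 for Slc25a24 over Slc25a25.

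In 4 pairs the ratios overlapped. Slc25a10 over Slc25a11 differed by 0.09 (exact permutation p = 0.40), with both members having risen. Slc25a12 over Slc25a13 differed by -0.99 (exact permutation p = 0.20), beside an SD between libraries of 0.80 in controls and 0.81 in knockouts. Slc25a23 over Slc25a24 (-0.29) and Slc25a14 over Slc25a30 (-0.06) also overlapped.

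Reads of similar genes could be assigned to the wrong member of a pair, so the coding sequences of the longest transcripts were aligned. Identity was 77.6% for Slc25a4 and Slc25a5, whose longest shared run was 20 bases, and 70.8% for Slc25a12 and Slc25a13 (21 bases). It was 66.4% for the mitoferrins (15 bases), 62.7% for Slc25a33 and Slc25a36 (11 bases) and 58.6% for Slc25a34 and Slc25a35 (25 bases). The annotated pseudogene Slc25a5-ps had 1085 counts over all 6 libraries and was counted apart from Slc25a5.

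**Figure D4:**
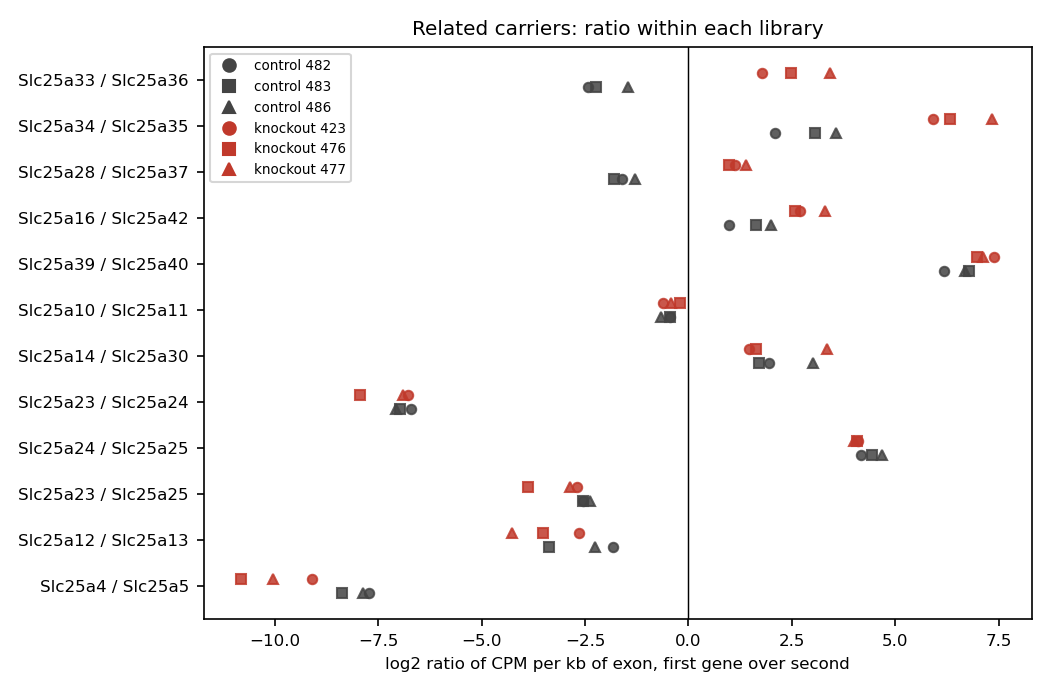
Log2 ratio of levels per kilobase between the first and the second named carrier within each library (x axis), for 12 pairs of related carriers (grey: 3 controls; red: 3 knockouts). Slc25a33 over Slc25a36 and Slc25a28 over Slc25a37 lie below 0 in all controls and above 0 in all knockouts, from a mean of -2.04 to 2.56 and from -1.56 to 1.17.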

How the data were processed

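Counts came from 6 polyA RNA-seq libraries, 3 per genotype, grouped by sample title. The authors deposited raw counts, as whole numbers for each gene. The submitters' processing notes name STAR 2.7.9a, featureCounts (Subread 1.6.2), fastp 0.21.0, bcl2fastq, FastQC 0.11.7, DESeq2 1.23.10 and build mm10. Annotation and strand setting were not given in the sources used here. A second deposited table of variance-stabilised values was not used here. Of 55450 identifiers 55190 matched GENCODE M21, which gave symbols, coordinates, exon lengths and GC content. Members and gene lists were chosen with earlier results of these data known.

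In R 4.3.3, edgeR 4.0.16 (filterByExpr, TMM, robust quasi-likelihood test) compared knockout with control over 15028 genes and p-values were adjusted after Benjamini-Hochberg (threshold 0.05). The SE is the log2 fold change over the square root of F. The script was tested on simulated data. Named are all called members with library values, the 5 most abundant per kilobase, up to 3 uncalled members per role group and up to 3 called genes per context list. Other uncalled members are named to account for the family, and Slc25a32 was given values after these were seen. Alternatives were total library size or RLE scaling, no filter, DESeq2 1.42.0, removal of each library's length and GC trend (natural splines, 5 degrees of freedom per term) and leaving out each library. The labels do not say that mice of a genotype came from separate litters, so p-values measure the spread between these mice. Floors cover counting error only, while the SE also holds the spread between libraries. The second targeted gene is not reported here, and 1 tested carrier and 1 context gene enter the counts without being reported singly.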

Additional observations from a re-analysis of the deposited data

How the results depend on the processing

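The count of 4 carriers lower in knockout epithelium became 7 with DESeq2, 8 without the filter on low counts and 10 with total library size scaling, and the count of 9 higher became 4 with total library size scaling. The 7 and the 8 include Slc25a48, which is not among the 35 tested carriers. Leaving out 1 library gave 7 to 10 higher and 2 (without control 482) to 5 lower (without control 486 or knockout 423). The counts lower without knockout 423 or knockout 477 also include 1 carrier from outside the 35. The cause of these differences was not tested. Counts higher were 9 with RLE size factors and with DESeq2, 8 without the filter and 10 with the length and GC trend removed; counts lower were 4 with RLE size factors and 3 with the trend removed. The number of carriers whose genotypes did not overlap was 20 with total library size scaling, 21 with RLE size factors and 22 without the filter, against 21. Leaving out 1 library gave 22 to 25, but fewer libraries separate more easily, so these counts do not show stability. The number was not computed for DESeq2 or for the trend removal. Among the 35 carriers, the call was the same in 35 with RLE size factors, 33 with the trend removed, 31 with DESeq2, 31 without the filter and 24 with total library size scaling. No called carrier changed direction under any of these settings. No paired analysis was possible because the genotypes share no animal numbers. With 3 libraries per genotype, and 40 counts as the smallest sum over a genotype among tested carriers, a difference that missed the threshold is not shown to be absent.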

Other observations

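The 2 SLC25 carriers not counted among the 45 both rose. Slc25a20, the carnitine-acylcarnitine carrier that brings fatty acids into the matrix, rose by 3.24 on the log2 scale (71.5 ± 23.7 CPM in controls, 676 ± 100.3 CPM in knockouts, SD, n = 3; adjusted p 0.00012 by edgeR's quasi-likelihood test). Slc25a1, the citrate carrier that exports acetyl units for lipid synthesis, went from 118 ± 8.91 to 320 ± 63.5 CPM (1.44, adjusted p 0.0018).

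Carriers of the inner membrane with other symbols moved in both directions: of 16 tested 2 rose and 4 fell, with a median log2 fold change of -0.35. Ucp2, an uncoupling protein, rose from 376 ± 40.6 to 851 ± 86.5 CPM (1.18, adjusted p 0.0042), Abcb10, a transporter needed in haem synthesis, fell (-1.36, 0.00085), and Sfxn1, the mitochondrial serine carrier, fell (-1.15, 0.0034). The count that rose was 1 without control 482, control 483, knockout 423 or knockout 477, the count that fell was 2 without control 482, knockout 476 or knockout 477, and 8 fell with total library size scaling. Of 25 general mitochondrial genes (import, respiratory chain and chaperones) 6 rose and 1 fell, with a median of 0.31. Timm23 and Tomm20, subunits of the protein import machinery, rose (1.73, adjusted p 0.0056, and 1.09, 0.012), and Ndufs1, a subunit of complex I, fell (-0.80, 0.013). Leaving out control 482, knockout 423 or knockout 477 left 3 that rose, leaving out control 483 left 2 and leaving out control 486 gave 9; 0 fell without knockout 477, and with total library size scaling 1 rose and 3 fell.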
